A study of Homo sapiens with 31 samples.

Results

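PDE4B and PDE4D encode phosphodiesterases of the PDE4 family, enzymes that hydrolyse the second messenger cAMP. A single PDE4 gene is read from several promoters, which gives long and short enzymes that differ at their N-termini. cAMP is made by adenylyl cyclases under the control of G proteins, acts through protein kinase A and other effectors, and is removed by phosphodiesterases, which scaffold proteins hold near the kinase. Circular RNAs (circRNAs) form when a splice donor is joined back to an acceptor upstream of it, and are counted by the reads that cross this back-splice junction.

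The circRNAs described here were those named after a transcript of PDE4B or PDE4D. Of 55371 back-splice structures in the deposited list, 2 met this rule, and both lie in PDE4B on chromosome 1. Another PDE4B structure is named after a transcript that is not in GENCODE 44 and was matched to the gene by its exon ends alone. PDE4D circRNAs were not analysed here. The family was chosen because its circRNAs rose between day 0 and untreated day 45, so values against day 0 are given as a description without a test.

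H9 cells, an established human embryonic stem (ES) cell line, were differentiated towards retina in triplicate cultures, and total RNA depleted of ribosomal RNA was sequenced. There were 5 groups of 3 libraries: undifferentiated cells at day 0, untreated cultures at day 45 and at day 90, and cultures that received the growth factor IGF-1, harvested at day 45 and at day 90. The IGF-1 dose was 5 ng/ml until day 37 and 10 ng/ml from then on, and all cultures came from the same line. Whole cultures were harvested, so fewer cells of a type and less RNA per cell cannot be told apart. RIN values were 9.8 to 10 at day 0, 7.6 to 9.1 at day 45 and 7.1 to 8.9 at day 90.

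Between 105685200 and 155002132 reads were taken as the sequenced reads of a library. They included 14992 to 17929 back-splice reads at day 0 and 42858 to 108946 in the later libraries. Day 90 replicate 1 stood apart from the other later libraries, with 309.3 back-splice reads per 1000000 sequenced reads (RPM) against 474 to 984. The main values of PDE4B at day 90 are given with and without it. Of the marker genes checked, those of neural and retinal progenitors and neurons, 7 of 12 with any back-splice read, summed to 0.314 to 0.433 RPM at day 0 and 4.42 to 19.8 RPM later. A single gene, the long non-coding RNA gene RMST, supplied 96.6% of these reads, and the others together gave 0.0999 to 0.176 RPM at day 0 and 0.284 to 0.757 RPM later. LHX2, RIMS1, ELAVL3 and DCX were at 0 at day 0, LHX2 and DCX also at untreated day 45 and at day 90 with IGF-1, and DCX at day 45 with IGF-1. None of the 7 photoreceptor genes had a back-splice read, so the retinal identity of the cultures could not be checked from them. Of 12 pluripotency genes 5 had any, with summed levels of 0.00801 to 0.0211 RPM at day 0, 0 RPM in both day 45 groups, and at most 0.0144 RPM at day 90. The pigment epithelium genes (4 of 8 with any read) reached at most 0.0907 RPM, the mesenchyme and muscle genes (6 of 7) at most 0.0506 RPM, and the epithelial gene EPCAM (1 of 4) at most 0.0856 RPM.

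The leading structure, circPDE4B E3-E2, joins the donor of exon 3 to the acceptor of exon 2 of the transcript PDE4B-201 and spans chr1:66378928-66384518 on the plus strand of hg19. The minor structure, circPDE4B E5-E2, joins exon 5 to exon 2 of PDE4B-206 and spans chr1:66713143-66731770. The structure matched by exon ends, circPDE4B E4-E2, spans chr1:66713143-66723546 and uses the acceptor of the minor structure. The 50 bases around each junction are shown because these letters, read across the join, are what tells back-spliced molecules from the linear transcript. The paper states that rare trans-splicing can also give such junctions. That the PDE4B structures are circular was inferred from junction reads alone and was not tested. The genome sequence is GRCh37, and capitals mark the 25 bases after the join, which belong to the acceptor exon.
circPDE4B E3-E2: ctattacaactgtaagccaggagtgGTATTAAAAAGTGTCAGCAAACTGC
circPDE4B E5-E2: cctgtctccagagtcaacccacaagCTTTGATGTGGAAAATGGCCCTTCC
circPDE4B E4-E2: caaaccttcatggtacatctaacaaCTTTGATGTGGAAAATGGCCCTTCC

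The minor and the exon-end structure carry the same bases after the join and differ before it, whereas circPDE4B E3-E2 shares no exon with either. The splice sites that are joined in circPDE4B E3-E2 are shown with 30 intron bases each, from chr1:66378898-66378933 for the acceptor and chr1:66384513-66384548 for the donor, with the AG and GT in capitals.
E3-E2 acceptor site: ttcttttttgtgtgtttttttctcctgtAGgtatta
E3-E2 donor site: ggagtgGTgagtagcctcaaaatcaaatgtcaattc

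AG before the acceptor and GT after the donor stood at 99.2% of the 12498 structures with at least 10 reads over the 15 libraries, the set used for all tests and called the tested structures here.

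Exon 2 (chr1:66378928-66379039, 112 bases) holds 70 bases of 5′ untranslated sequence followed by 42 coding bases, which begin with the start codon. Exon 3 (chr1:66384280-66384518, 239 bases) is coding throughout. Both exons occur together in 2 of the 18 PDE4B transcripts of GENCODE 44, whereas the 4 exons of circPDE4B E5-E2 occur in 4 to 7 of the 18. A circle of these exons would hold 351 bases, or 117 codons with 0 bases left over, and 36.3% of the 10874 tested structures with exons found in their transcript have a length that is a multiple of 3. Read from the annotated start codon, the frame crosses the junction in codon 94 and meets its first stop at codon 96, within the exon 2 bases that are untranslated in the linear transcript. No protein was measured, and the frame is given as a property of the sequence alone. The minor circle would hold 353 bases, all coding.

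The introns around circPDE4B E3-E2, as annotated in the transcript it is named after, are among the longest of the tested structures. The intron before its acceptor exon measures 120614 bases and the intron after its donor exon 328624 bases, against medians of 7533 and 6441 bases over the tested structures. The first is longer than 98.7% of these introns and the second longer than 99.95%. Only 1 other of the 10852 tested structures with both lengths, in the neurexin gene NRXN3, has a longer intron on both sides, with 146897 and 479079 bases. circPDE4B E5-E2 lies between introns of 254317 and 66420 bases, longer than 99.8% and 96.4% of theirs. The plot of intron lengths places both structures at its upper right edge.

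**Figure D1:**
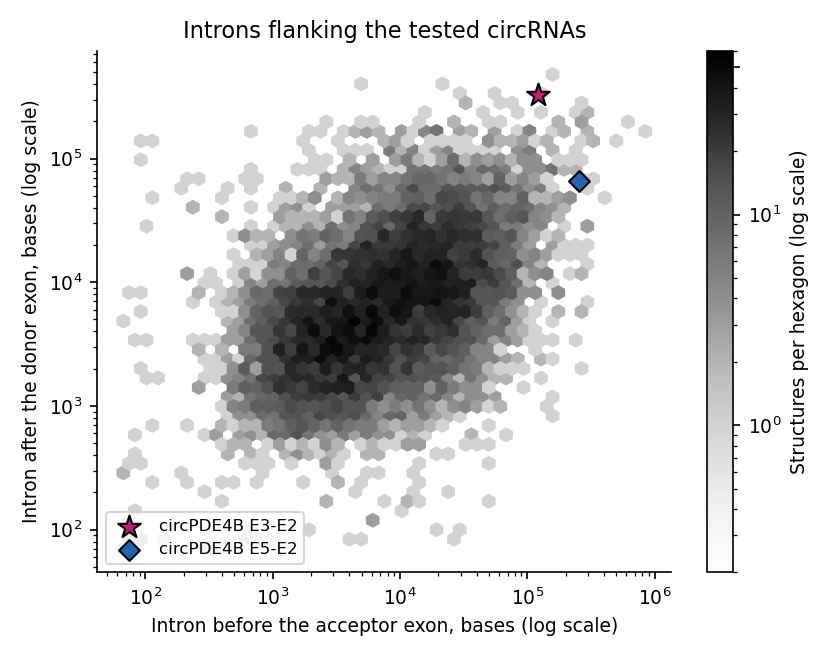
Length of the intron before the acceptor exon (horizontal, bases, log scale) against that of the intron after the donor exon (vertical, bases, log scale) for tested circRNAs, with darker hexagons holding more structures. The star is circPDE4B E3-E2 at 120614 and 328624 bases and the diamond circPDE4B E5-E2 at 254317 and 66420 bases.

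Other features of circPDE4B E3-E2 were common. Exon 2 is the acceptor in 28.3% of the tested structures, 6.73% join exon 3 to exon 2, and 26.2% contain 2 exons. Inverted repeats in the flanking introns are known to bring splice sites together. The longest exact inverted match between the 1000 bases before the acceptor and the 1000 bases after the donor was 11 bases for circPDE4B E3-E2 and 9 bases for circPDE4B E5-E2, against a median of 12 bases. The letters ACTAAC and ACTAAT, the form in DNA of a motif that the splicing factor QKI is known to bind, were searched on the transcript strand only, and the 2 motifs do not overlap. They occurred in neither the 500 bases before the acceptor nor the 500 bases after the donor of circPDE4B E3-E2. Of all tested structures 18.0% held a match in the first window, 16% in the second and 3.19% in both. These windows cover a small part of such introns.

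circPDE4B E3-E2 was not read at day 0 and was read in each of the 12 later libraries. It had 0, 0 and 0 reads in the day 0 libraries. At untreated day 45 it had 33, 49 and 69 reads in replicates 1 to 3, or 0.298, 0.354 and 0.471 RPM. The day 45 IGF-1 libraries held 41, 36 and 31 reads, or 0.388, 0.269 and 0.221 RPM. At untreated day 90 the counts spread more widely, with 23, 72 and 49 reads, or 0.166, 0.520 and 0.320 RPM, and the lowest of these was the library with few back-splice reads. The day 90 IGF-1 libraries held 29, 36 and 22 reads, or 0.219, 0.232 and 0.151 RPM.

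**Figure D2:**
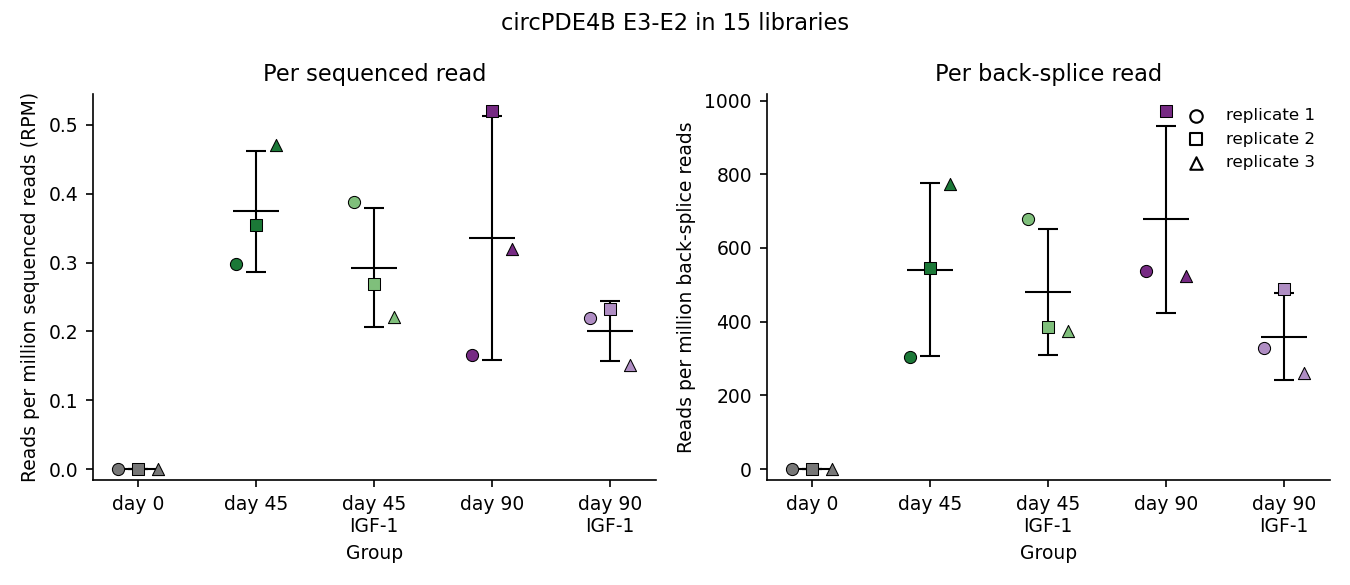
Level of circPDE4B E3-E2 in each library, per 1000000 sequenced reads (left) and per 1000000 back-splice reads of the library (right), by group, with symbols for replicates and bars for the mean and SD of 3 libraries. All 3 day 0 libraries are at 0 and all later libraries lie between 0.151 and 0.520 RPM, with untreated day 90 spread most widely.

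From highest to lowest, the group means were 0.374 ± 0.0882 RPM at day 45, 0.335 ± 0.177 at day 90, 0.293 ± 0.0859 at day 45 with IGF-1, 0.201 ± 0.0438 at day 90 with IGF-1 and 0 at day 0 (SD, n = 3 libraries each). Neighbouring later groups in this order overlapped in their libraries, and without day 90 replicate 1 the day 90 mean was 0.420 ± 0.141 RPM (SD, n = 2), the highest of all. The SD at untreated day 90 was 0.177 RPM where counting alone would give 0.0483, and in the other later groups it was 0.0438 to 0.0882 RPM where counting would give 0.0374 to 0.0542. The day 0 count of 0 allows up to 0.00737 RPM, taking 3 reads over the group's 3 libraries as the limit. Pooled over each group's 3 libraries, circPDE4B E3-E2 was 51.8-fold above this limit at day 45 and 45.4-fold at day 90. With IGF-1 it was 38.6-fold above it at day 45 and 27.3-fold at day 90. The ratios leave out the spread of the later libraries, so single libraries can lie lower. These comparisons share the day 0 libraries. Each later group lay wholly above day 0, as did 46.2% of the tested structures at day 45, 39.6% at day 45 with IGF-1, 32.4% at day 90 and 38% at day 90 with IGF-1, and since the members were chosen on this rise nothing is read from it.

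Back-splice reads of all structures together were at 106 to 128 RPM at day 0 and 309.3 to 984 RPM later. Per 1000000 back-splice reads and pooled in the same way, circPDE4B E3-E2 was 8.40-fold above the day 0 limit at day 45 and 10.96-fold at day 90. With IGF-1 it was 7.32-fold above it at day 45 and 5.65-fold at day 90. Of the 250 structures with at least as many reads over all libraries, 3 had 0 reads at day 0, circPDE4B E3-E2 among them, and their median was 31 day 0 reads. Altogether 579 of the 42940 structures with 0 reads at day 0 were found in every later library, and by summed reads circPDE4B E3-E2 stood at rank 3 of the 42940. Many structures hold few reads, with 19985 of all 55371 at 1 read. The members were chosen on the rise from day 0, so nothing is read from this rank or from the absence at day 0. Within a library circPDE4B E3-E2 ranked between 89 (day 90 replicate 2) and 574 (day 90 IGF-1 replicate 3) by reads.

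circPDE4B E3-E2 accounted for nearly all back-splice reads of PDE4B. It took 490 of the 505 reads of the 2 structures, or 97.0%. circPDE4B E5-E2 had 15 reads: 1 and 3 in day 45 replicates 1 and 3, 2 each in day 45 IGF-1 replicates 2 and 3, 5 in day 90 replicate 2 and 2 in day 90 IGF-1 replicate 1. It was therefore found in 6 of the 12 later libraries and nowhere at day 0, and with at most 5 reads in a group no fold is given. circPDE4B E4-E2 had 1 read, in day 45 IGF-1 replicate 2.

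The share of circPDE4B E3-E2 in the gene's reads was 97.1%, 100% and 95.8% in day 45 replicates 1 to 3 and 100%, 93.5% and 100% at day 90. Its means were 97.6% ± 2.14 and 97.8% ± 3.75 (SD, n = 3), a difference of 0.205 percentage points (exact permutation test, two-sided, p = 1). With 3 libraries against 3 this test cannot give a p below 0.1. Over both days the IGF-1 libraries gave 97.0% ± 3.27 and the untreated libraries 97.7% ± 2.73 (SD, n = 6 each), a difference of −0.696 percentage points (exact permutation test, two-sided, p = 0.740).

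Such a share is high but not rare. Among the 1715 genes with at least 100 back-splice reads, the most abundant structure took a median of 53.1%, and 91.8% of the genes had a lower share than PDE4B. PDE4B stood at rank 390 by reads. The 392 genes with at least its reads had a median of 16 structures each, and 22 of them had 2 or fewer.

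**Figure D3:**
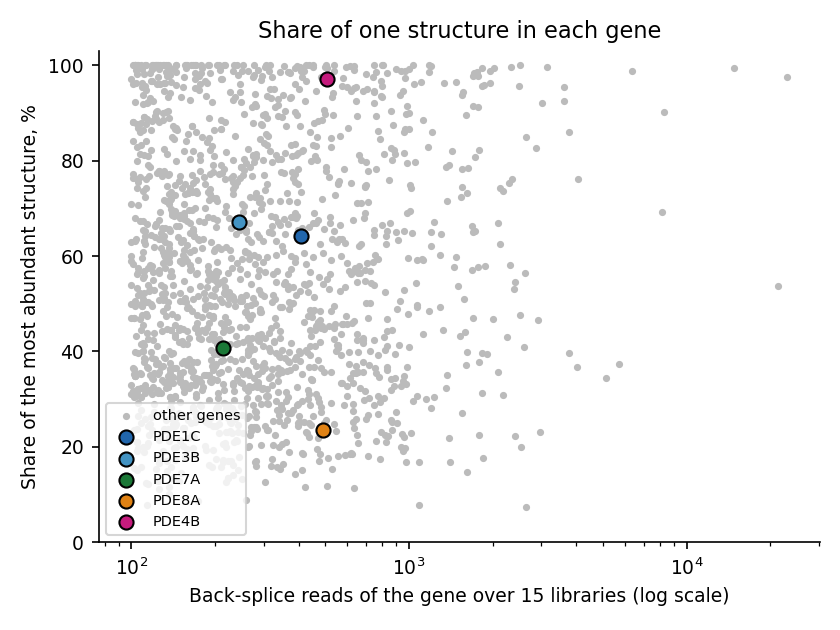
Share of a gene's back-splice reads taken by its most abundant structure (vertical, %) against the gene's reads over 15 libraries (horizontal, log scale) for genes with at least 100 reads. PDE4B lies at 97.0% with 505 reads, above PDE3B, PDE1C, PDE7A and PDE8A.

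Whether the level moved between day 45 and day 90, and with IGF-1, was examined by the quasi-likelihood test of edgeR over all 12498 tested structures, with sequenced reads as library sizes and Benjamini-Hochberg adjustment at 0.05. Neither PDE4B structure passed the threshold in any of these comparisons, and neither had an unadjusted p under 0.05 by edgeR. DESeq2's Wald test called neither, with 1 unadjusted p under 0.05 for IGF-1 at day 90 and 1 for IGF-1 over both days, both of circPDE4B E3-E2. Few structures of any gene passed by edgeR: 0.08% between untreated day 45 and day 90, 0.016% for IGF-1 at day 45, 0.008% for IGF-1 at day 90, 0.016% between the days under IGF-1 and 0% for the difference of the IGF-1 effects. The background for IGF-1 over both days was 0.008%. The untreated day 45 libraries, on which the members were chosen, enter the untreated day 45 to day 90 comparison and IGF-1 at day 45. They also enter IGF-1 over both days and the difference of the IGF-1 effects. A choice on a high day 45 level can shift these estimates, at structure and gene level, so they are not independent of that choice.

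Between untreated day 45 and day 90, circPDE4B E3-E2 changed by −0.16 on the log2 scale (SE 0.43, edgeR adjusted p = 0.935), and the interval of 2 SE either side ran from −1.02 to 0.69. The median log2 change over the tested structures was −0.61, so that circPDE4B E3-E2 lay 0.45 above it. With DESeq2, whose size factors come from the back-splice counts, the median was −0.05 and the estimate turned to 0.35, again above the median, by 0.40. Without day 90 replicate 1 the edgeR estimate was 0.16, without day 45 replicate 3 it was 0.04 and without day 90 replicate 2 it was −0.62. The sign of the change was therefore not settled by these libraries.

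Under IGF-1 the corresponding change was −0.53 (SE 0.44, adjusted p = 0.989, edgeR, 2-SE interval −1.42 to 0.35). The median over the tested structures was −0.14, and circPDE4B E3-E2 lay 0.39 below it. The groups overlapped only slightly, with 0.221 RPM as the lowest day 45 IGF-1 library and 0.232 RPM as the highest day 90 IGF-1 library. Leaving out any single library kept this estimate between −0.70 and −0.29.

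The estimates for IGF-1 were below 0 on both days without passing the threshold. At day 45 the log2 change of circPDE4B E3-E2 was −0.37 (SE 0.43, edgeR adjusted p = 1, 2-SE interval −1.23 to 0.50). The median over the tested structures was −0.26, and circPDE4B E3-E2 lay only 0.10 below it. Libraries of the same replicate number had similar shares of bases at Q30 or better (86.74% and 86.28%, 92.34% and 92.6%, 90.37% and 90.92% for the untreated and the IGF-1 library of replicates 1 to 3). Within these pairs the IGF-1 library stood at 1.30, 0.760 and 0.470 times the untreated library, so the direction differed between them.

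At day 90 the log2 change with IGF-1 was −0.74 (SE 0.44, unadjusted p = 0.0924, adjusted p = 1 by edgeR), and the 2-SE interval ran from −1.61 to 0.14. The median over the tested structures was 0.21, and circPDE4B E3-E2 lay 0.94 below it. The highest IGF-1 library, at 0.232 RPM, was below untreated replicates 2 and 3 and above replicate 1, so the groups overlapped. Without untreated replicate 1 the change was −1.06 (unadjusted p = 0.0166, adjusted p = 1, edgeR), and without untreated replicate 2 it was −0.28 (unadjusted p = 0.584). Fisher's exact test on reads summed over the replicates called circPDE4B E3-E2 lower with IGF-1 (log2 change −0.73, adjusted p = 0.0411), but that test holds no spread between libraries and called 81 structures where edgeR called 1.

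Over both days together, a contrast chosen after the data had been seen, the log2 change with IGF-1 was −0.55 (SE 0.31, unadjusted p = 0.0728, adjusted p = 1 by edgeR). With 1 library left out this change ran from −0.71 to −0.32. The value of −0.71 came without day 90 replicate 1 (unadjusted p = 0.0169, adjusted p = 1, edgeR). An unadjusted p under 0.05 was reached by 4.0% of all tested structures in this contrast. The IGF-1 effect at day 90 minus that at day 45 was −0.37 (SE 0.61, edgeR adjusted p = 1), and it was 0.09 without untreated day 90 replicate 2.

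**Figure D4:**
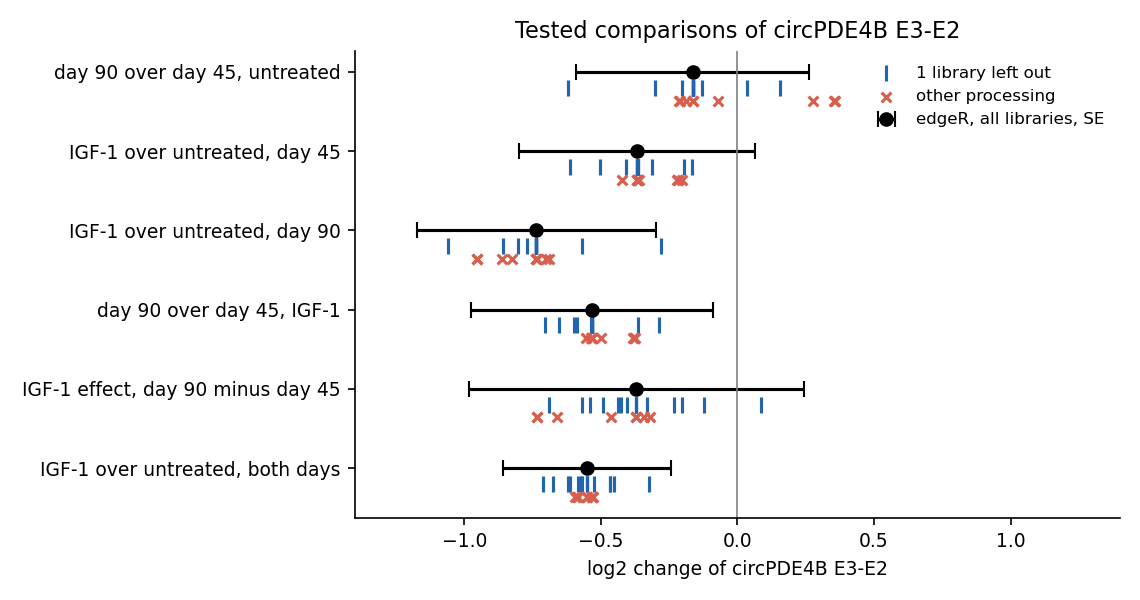
log2 change of circPDE4B E3-E2 in the 5 tested comparisons and over both days, with the edgeR estimate and its SE (black), the estimates with 1 library left out (blue ticks) and those under other processing (red crosses). The estimates for IGF-1 over untreated lie below 0 under every setting drawn, whereas those for day 90 over day 45 without IGF-1 lie on both sides of 0.

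Reads summed over PDE4B gave nearly the same values, since circPDE4B E5-E2 added few reads. Over the 4616 genes with at least 10 summed reads, the log2 change of PDE4B was −0.15 (SE 0.41) between untreated day 45 and day 90, −0.36 (SE 0.41) with IGF-1 at day 45 and −0.75 (SE 0.42) with IGF-1 at day 90. It was −0.55 (SE 0.43) between the days under IGF-1 and −0.40 (SE 0.59) for the difference of the IGF-1 effects. The edgeR adjusted p-values were 0.871, 0.993, 1, 0.997 and 0.957 in that order, and 0.282%, 0.0217%, 0.0217%, 0.065% and 0.0217% of all genes were called.

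The other phosphodiesterases give the setting of these values. Reads across a single junction do not scale with the length of a gene, but the gene sums below add up unlike numbers of structures. Of 22 other phosphodiesterase genes listed, 13 had back-splice reads and 10 had at least 10. Summed over the 15 libraries, PDE4B had 505 reads in 2 structures, the cAMP-specific PDE8A 491 in 24 structures, the calcium- and calmodulin-regulated PDE1C 407 in 12, PDE3B 244 in 20 and the cAMP-specific PDE7A 214 in 8. The order of the gene sums differed between groups. PDE4B had the highest mean at untreated day 45 (0.384 RPM against 0.283 for PDE8A). The family was chosen on its level in that group, so nothing is read from this lead. At day 45 with IGF-1 PDE8A stood at 0.325 RPM and PDE4B at 0.302, and at untreated day 90 PDE1C stood at 0.381 and PDE4B at 0.347. At day 90 with IGF-1 PDE8A (0.386 RPM) and PDE1C (0.294) were both above PDE4B (0.206). These differences between genes were not tested. The leading structure took 23.6% of the reads of PDE8A, 64.1% of PDE1C, 67.2% of PDE3B and 40.7% of PDE7A, against 97.0% of PDE4B. The most abundant structure among these genes, in PDE1C (chr7:31912905-31920473), had 261 reads over the 15 libraries, against 490 for circPDE4B E3-E2.

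Like PDE4B, PDE1C was at 0 reads in all day 0 libraries. Its mean was 0.165 ± 0.0971 RPM at day 45, 0.121 ± 0.115 at day 45 with IGF-1, 0.381 ± 0.0900 at day 90 and 0.294 ± 0.144 at day 90 with IGF-1 (SD, n = 3), and the day 90 mean was 0.430 without day 90 replicate 1. The PDE4B sum was at 0.384 ± 0.0958 RPM at day 45 and 0.347 ± 0.196 at day 90 (SD, n = 3), or 0.438 at day 90 without that replicate. PDE10A, an enzyme of striatal neurons that hydrolyses both cAMP and cGMP, was also at 0 at day 0, with 0.106 ± 0.111 RPM at day 45 and 0.0179 ± 0.0198 RPM at day 90 (SD, n = 3). Its day 45 reads were 26, 5 and 7 in replicates 1 to 3, and without replicate 1 the day 45 mean was 0.0419 RPM. PDE7A had 23 reads at day 0, more than any other phosphodiesterase listed, and 75 at day 45. None of the 10 genes passed the threshold between untreated day 45 and day 90 (edgeR, lowest adjusted p = 0.0998). An unadjusted p under 0.05 was reached by 3 of the 10 in this comparison, and by 647 of all 4616 genes. The log2 change was 1.19 (SE 0.43) for PDE1C and −2.43 (SE 0.74) for PDE10A. Without day 90 replicate 1 these were 1.37 and −1.88, and without day 45 replicate 1 that of PDE10A was −1.16.

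**Figure D5:**
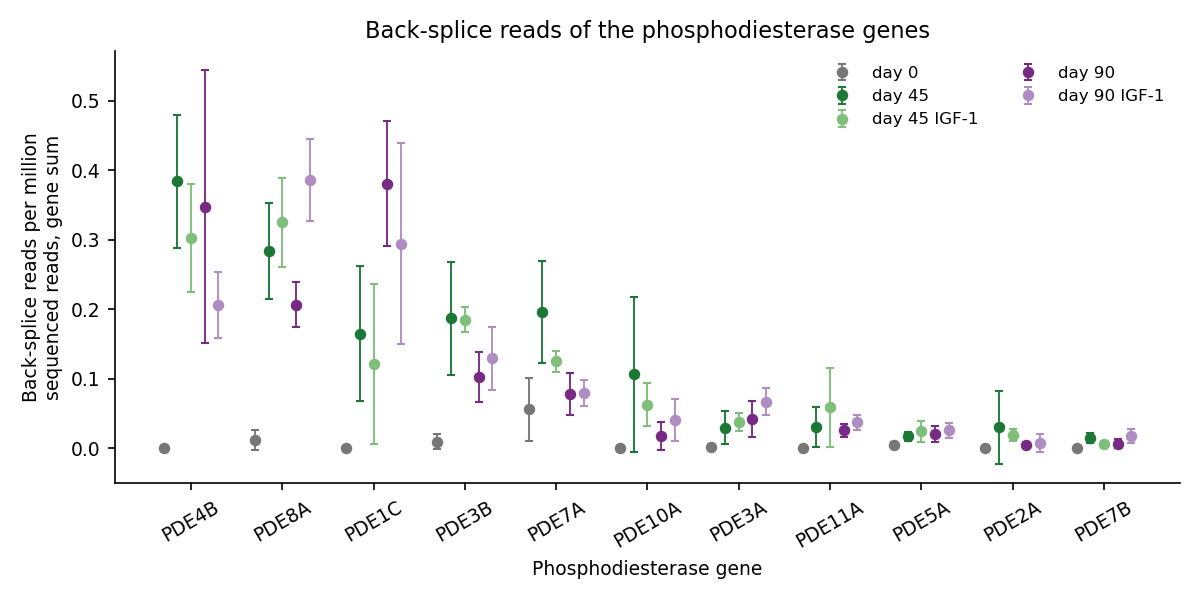
Back-splice reads summed per phosphodiesterase gene, per 1000000 sequenced reads (mean and SD of 3 libraries), in the 5 groups, for PDE4B and the 10 other genes with at least 10 reads. PDE4B has the highest mean at untreated day 45, the group on which it was chosen, PDE1C at untreated day 90 and PDE8A in both IGF-1 groups. Of the 11 genes, 6 have no read at day 0, PDE4B among them.

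Across the cAMP pathway, 39 of 82 listed genes other than PDE4B and PDE4D had enough reads for a test. They comprised 10 phosphodiesterases, 9 adenylyl cyclases and G proteins, 4 genes of protein kinase A, 10 anchors and scaffolds and 6 effectors. Between day 0 and untreated day 45, 23 of the 39 gene sums rose and 0 fell by edgeR with sequenced reads as library sizes, 59.0% against 61.9% of all genes, so the share was near the background. With DESeq2, whose size factors come from the back-splice counts, 4 of the 39 were called higher (PDE10A, PDE1C, PDE8A and AKAP6) and 2 lower (PRKAR1B and AKAP12). The DESeq2 share over all genes is not given here, so nothing is read from these calls, in total or by list.

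By list, 9 of 10 phosphodiesterases, 2 of 9 adenylyl cyclases and G proteins, 1 of 4 protein kinase A genes, 7 of 10 anchors and scaffolds and 4 of 6 effectors rose at day 45 by edgeR, and DESeq2 called 3 of the phosphodiesterases higher and 0 lower. The median log2 change of the other phosphodiesterases was 4.28 by edgeR, against 3.13 for the 39 genes and 2.77 for all genes. As 5 of the 10 had 0 reads at day 0, it was 2.64 with these at their lower bound, and with DESeq2 it was 1.64, with 2 of the 10 estimates below 0. The medians of the 39 genes and of all genes hold no such bound, so they are not like measures to 2.64. A DESeq2 median over all genes is not given here. At untreated day 90, 17 of the 39 were higher than at day 0 (43.6% against 43.4% of all genes, or 17 again without day 90 replicate 1, against 47.2%), and with IGF-1 19 of 39 at day 45 (48.7% against 53.8%) and 19 of 39 at day 90 (48.7% against 49.6%).

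In the comparisons among the later groups 0 of the 39 genes were called by edgeR or DESeq2. By edgeR 5 of the 39 had an unadjusted p under 0.05 between untreated day 45 and day 90, against 647 of all 4616 genes. In each of the other comparisons 2 of the 39 did, against 208, 150, 212 and 202 of the 4616 in the order above. DESeq2 gave 2, 1, 2, 2 and 0 of the 39, starting with untreated day 45 to day 90. Over all 4616 genes it gave 160, 106, 77, 160 and 84, and nothing is read from these counts. The median log2 change of the 39 genes with IGF-1 was −0.35 at day 45 and 0.33 at day 90, where that of PDE4B was −0.36 and −0.75.

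The genes whose summed back-splice reads followed PDE4B most closely over the 15 libraries, by Pearson's r of log2(RPM + 0.01) among 1714 genes with at least 100 reads, were NIPBL (r = 0.982), REPS2 (0.977), FBXL17 (0.976), PCCA (0.976) and STRN3 (0.976). The same libraries and day 0 step lie behind every such value, and the median r over the 1714 genes was 0.851. Among the 12 later libraries alone, r was 0.677 for NIPBL, 0.470 for REPS2, 0.445 for FBXL17, 0.509 for PCCA and 0.718 for STRN3. Unlike PDE4B, each of the 5 genes had reads at day 0, from 3 for REPS2 to 85 for PCCA.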

How the data were processed

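Total RNA depleted of ribosomal RNA was sequenced in 15 libraries of H9 cells in 5 groups of 3 cultures. The authors counted reads over back-splice junctions with PTESFinder version 1 (GENCODE 19, hg19) and deposited the raw count of each structure in each library, without normalisation or pooling. Library names ending in a, b and c were read as replicates 1, 2 and 3. The 16 FIRRE amplicon samples were not used.

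Sequenced reads were taken from the study's quality table, which names 2 lines day 90 replicate 1 and none replicate 2, and both libraries were given the mean. The limit set by a count of 0 covers counting error only, since reads are not independent molecules. Structures were assigned to genes by the transcript in their name with GENCODE 44 on GRCh37, which holds the coordinates of hg19 (48401 structures), 6746 more matched by exon ends alone and 224 were left out. Sequences were read from the GRCh37 genome.

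edgeR 4.0.16 (glmQLFit and glmQLFTest, R 4.3.3) was fitted once to the 15 libraries together, taking sequenced reads as library sizes without TMM, on features with at least 10 counts. Benjamini-Hochberg adjustment covered all features, and an SE is the log2 change divided by the root of F. Tested on simulated data for day 45 against day 90 with 200 of 12498 structures changed 8-fold, it found 95% of them with 2.06% of calls false. The changed structures were drawn from abundant ones only, and the same spread was used for all. Smaller changes, and changes in structures with few reads, were not simulated. Alternatives were TMM, DESeq2 1.42.0 size factors and Wald test, both orders of the day 90 read numbers, no filter, at least 50 counts, a replicate block, Fisher's exact test on summed counts, gene assignment also by exon ends, and each library left out in turn. Shares were compared with exact permutation tests (scipy 1.17.1).

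Named were the 5 structures with most counts of each gene, those past the threshold, and the 5 genes with the highest r, while other phosphodiesterases were chosen after their values were seen. The members and gene lists were chosen with earlier results of these data known. A marker gene of the neural and retinal list is not reported here.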

Additional observations from a re-analysis of the deposited data

How the results depend on the processing

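The log2 change of circPDE4B E3-E2 between untreated day 45 and day 90 reversed with TMM (0.28), DESeq2 size factors (0.36) and DESeq2's Wald test (0.35), and that of the PDE4B sum likewise (0.35, 0.40 and 0.39). With 1 library left out they ran from −0.62 to 0.16 and from −0.66 to 0.18, and the IGF-1 effect at day 90 minus that at day 45 from −0.69 to 0.087 and from −0.72 to 0.11, reversing without day 90 replicate 2. No such change was past the threshold. Fisher's exact test on summed counts called 1 member, circPDE4B E3-E2, for IGF-1 at day 90 (−0.73). Per 1000000 back-splice reads, the PDE4B sum was 8.62-fold (day 45), 7.59-fold (day 45 IGF-1), 11.3-fold (day 90) and 5.78-fold (day 90 IGF-1) above the day 0 limit. Per sequenced read these ratios were 53.2, 40.0, 47.0 and 27.9, and with 1 library left out 34.6 to 57.7, 26.1 to 44.8, 30.6 to 58.6 and 18.1 to 31.7, lowest where a day 0 library is missing and the limit of 3 reads covers fewer reads. Differences of share ran from −0.877 to 2.37 points between the days and from −1.54 to 0.00214 points with IGF-1, with 1 library left out. Over all structures, edgeR called 10 between untreated day 45 and day 90, the replicate block 4, DESeq2's Wald test 2 and Fisher's test 921; for IGF-1 at day 45 these were 2, 0, 0 and 160, for IGF-1 at day 90 they were 1, 1, 0 and 81, and between the days under IGF-1 they were 2, 0, 1 and 126. With a minimum of 50 counts edgeR called 1 structure between untreated day 45 and day 90, with no filter 5, and with the other library sizes 6 to 13. The cause was not tested.

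The labels do not say that replicate numbers pair the samples, and not every same-number pair correlated above 0.1 (4 of 30, range −0.10 to 0.25, median 0.00457, against −0.00596 for other numbers). All 4 were untreated and IGF-1 libraries of the same day, where the 3 pairs gave 0.0838 to 0.247 at day 45 and 0.0293 to 0.139 at day 90 and 5 of 6 and 6 of 6 libraries correlated best with their own number, a hint from the data and not the design. With the number as a replicate block, circPDE4B E3-E2 changed by −0.36 with IGF-1 at day 45 and −0.70 at day 90 (unadjusted p = 0.430 and 0.130, adjusted p = 1, edgeR), and the block changed no call of a member. Of 536 alternative values in all, 504 kept their direction and side of the threshold or moved by less than the replicate SD. Of the others, 17 reversed, 14 moved further and 1 became stronger. The 536 include counts of called members that were 0 with any library left out, so the tally is no measure of robustness. The ratio of PDE4B to PDE4D was not run. Depth limits circPDE4B E5-E2, with 15 reads in all.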
